A study of Mus musculus with 3 samples.

Results

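Tryptophan leaves the cell's amino acid pool by a few routes, and 8 genes on these routes were followed here in mouse colon organoids before and after IFN-γ. They were Ido1, which opens the kynurenine route by oxidising tryptophan, Kmo, Kynu and Haao, which act further down that route, Wars, the cytosolic ligase that loads tryptophan onto its tRNA, Slc7a5, the light chain of a transporter for large neutral amino acids, Ahr, a receptor that binds kynurenine and other tryptophan derivatives, and Tiparp, an ADP-ribosyltransferase whose gene is an Ahr target. The genes were chosen by symbol, 8 of the 32285 features in the count matrices, and all 8 symbols were found. The rule itself used no values, but the choice was made with earlier results of these data known. Organoids were grown from colon epithelium of WT mice in full medium (FM), which holds the full set of growth factors and keeps many cells proliferating, and dead cells were sorted out before loading. The 3 groups were untreated organoids, organoids given IFN-γ for 24 h and organoids given IFN-γ for 48 h, each measured by sc-RNAseq in 1 library, so that a difference between conditions and a difference between libraries cannot be told apart and no test was possible. The study's methods give an age range in weeks and both sexes for its mice as a whole. They tie no age or sex to these organoids. As sources of tissue for organoids and assembloids they name a strain from Jackson Laboratories and Cre reporter strains for lineage tracing. Which of these strains gave the sequenced organoids is not stated.

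In epithelium and in antigen-presenting cells, IFN-γ is a textbook inducer of Ido1 and of Wars. Ido1 consumes tryptophan and yields kynurenine after a formamidase step, and the later enzymes lead towards NAD. Low tryptophan can slow translation and engage the Atf4 amino acid response, and kynurenine that leaves the cell can act on Ahr in its neighbours.

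A barcode counted as a cell from 5000 UMIs (unique molecular identifiers, each standing for 1 captured transcript) and 400 genes upwards, if mitochondrial UMIs made up 15% or less. The untreated library kept 1058 such cells with 49801935 UMIs, the 24 h library 917 with 71077817 and the 48 h library 2934 with 47243500. Median depth was 33550, 68784 and 10772 UMIs per cell, a gap between libraries that bears on every share of cells given here. Between 1 and 4 cell barcodes were shared by any pair of libraries. Levels are given as CPM, the UMIs of a gene in all cells of 1 library per 1000000 UMIs of those cells, differences are log2 ratios of these levels, and all 95% intervals, from exact Poisson or binomial counts, cover counting error only. The treatment itself was visible in Cxcl10, a chemokine, at 2.55 CPM untreated, 824 CPM at 24 h and 648 CPM at 48 h. The transcription factor Irf1 was at 23.5, 331 and 310 CPM, and Socs1, a feedback inhibitor, at 1.29, 79.2 and 38.3 CPM. The leukocyte marker Ptprc and the collagens Col1a1 and Col3a1 had no UMI in any library. The summed immune markers stood at 2.83, 2.98 and 3.98 CPM, led by Cd68. Summed stromal and endothelial markers stood at 1.89, 0.45 and 0.80 CPM, led by Pecam1.

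In the GENCODE vM21 annotation of GRCm38, Ido1 lies on the minus strand at chr8:24584136-24597009, and its paralog Ido2 ends 7802 bases before it at chr8:24531892-24576333, on the same strand. Slc7a5 is on the same chromosome at chr8:121881150-121907694. Wars (chr12:108860030-108894174) overlaps Wdr25 on the opposite strand, Kmo (chr1:175620381-175662116) overlaps Fh1 on the opposite strand, and Ahr (chr12:35497974-35535038) overlaps Gm48236 on the opposite strand. Kynu lies at chr2:43555329-43682715, Haao at chr17:83831156-83847963 and Tiparp at chr3:65528410-65555518. RefSeq promoter windows, of 250 bases before the start, were at hand for 3 of the 8 genes, Kmo, Haao and Tiparp. The RefSeq starts of Kmo and Haao lie inside the GENCODE genes, with windows at chr1:175631943-175632192 and chr17:83846791-83847040, so these windows do not precede the genes as placed above. They were searched on both strands for the core of the site that Ahr and its partner Arnt bind (GCGTG) and the core of the interferon response element (GAAANNGAAA). Tiparp held 1 Ahr core, 170 bases before its RefSeq start, Haao held 1, and Kmo held none. The stretch before Tiparp is shown because it is the promoter of the Ahr target in the set, from RefSeq on GRCm38.p6, plus strand, chr3:65528197-65528409, with the core in capitals as it reads on this strand (CACGC, the reverse complement of GCGTG).
Tiparp: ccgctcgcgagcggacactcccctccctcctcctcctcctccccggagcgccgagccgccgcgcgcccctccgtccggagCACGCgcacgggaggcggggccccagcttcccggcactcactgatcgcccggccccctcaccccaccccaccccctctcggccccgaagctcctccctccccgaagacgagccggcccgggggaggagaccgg
The Ahr core was present in 28.2% of 32851 promoter windows of this length and the interferon element core in 2.98%, and the latter did not occur in the 3 windows. A match of this kind describes letters and not binding.

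Ido1 was close to absent without IFN-γ and was among the features with the highest ratios at both times. A single UMI of Ido1 was counted in all untreated cells (0.020 CPM), against 14629 UMIs at 24 h (206 CPM) and 10757 UMIs at 48 h (228 CPM). The log2 ratio to untreated was 13.32 at 24 h (95% interval 10.85 to 18.63), and the width of the interval comes from the single untreated UMI. At 48 h it was 13.47 (10.99 to 18.77). Only 2 of 17412 features at 24 h and 3 of 17376 at 48 h had a higher ratio. The features ranked had at least 10 UMIs over the libraries compared. In pooled ratios a floor of 3 counts stood in for a library with no UMI, while the single untreated UMI of Ido1 was used as counted. A feature with no untreated UMI thus had a larger denominator than Ido1, and the rank of Ido1 can depend in part on this rule. Both treated libraries were at a similar level, since the 48 h over 24 h ratio was 0.15 (0.11 to 0.18) in pooled cells, -0.07 as a mean over single cells and -0.11 with TMM scaling (trimmed mean of M-values), so its direction depended on the scaling.

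Wars had a level without treatment and was several-fold higher with it. Its level was 84.6 CPM untreated (4212 UMIs), 526 CPM at 24 h (37355 UMIs) and 632 CPM at 48 h (29869 UMIs). These are 6.21-fold and 7.48-fold differences, or log2 ratios of 2.64 (2.59 to 2.68) and 2.90 (2.86 to 2.95). Of the 6 genes with enough counts to be compared, Ido1 and Wars were the 2 that were higher by at least 2-fold at 24 h, where 3.46% of all features were, and the same 2 genes passed at 48 h, where 5.26% of all features did. Kmo was the 1 gene lower by at least 2-fold at 24 h, against 26.0% of all features. In pooled cells none of the 6 was lower by that much at 48 h, against 16.6% of all features. Levels of Kmo by depth are given below. The median over all features was -0.46 at 24 h and -0.18 at 48 h, and TMM scaling moved it, and with it the ratios of pooled cells to untreated and the list medians, up by 0.43 and 0.17, and shifted the ratios of 48 h over 24 h by -0.26.

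**Figure D1:**
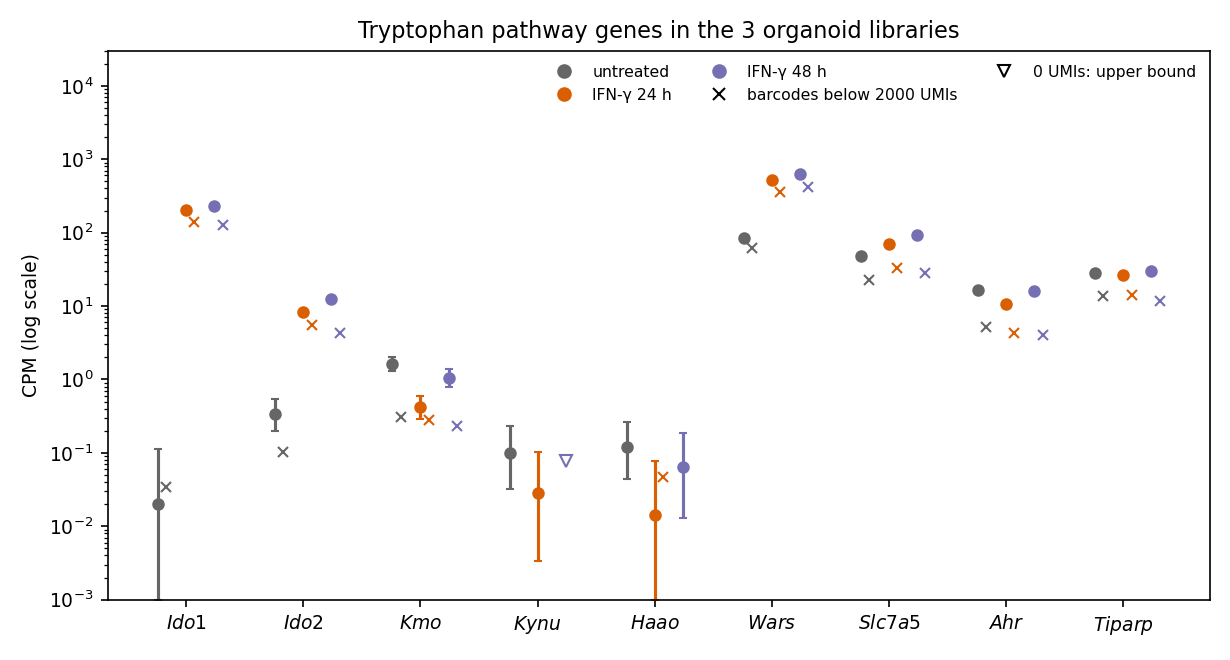
Levels of the 8 genes and Ido2 in the untreated, 24 h and 48 h libraries, as CPM of pooled cells on a log axis, with exact 95% counting intervals as bars (cut at the axis end for 1 UMI), crosses for barcodes below 2000 UMIs and an open triangle for the upper bound at 0 UMIs. Ido1 goes from 0.020 CPM to 206 and 228 CPM and Wars from 84.6 CPM to 526 and 632 CPM, while Kynu, Haao and Kmo stay low in every library.

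Kmo, Kynu and Haao, which act further down the kynurenine route, were barely detected. Other enzymes that act on kynurenine are given with the wider lists below. Kmo, which hydroxylates kynurenine, had 81, 30 and 50 UMIs (1.63, 0.42 and 1.06 CPM). Its log2 ratio was -1.95 (-2.60 to -1.33) at 24 h and -0.62 (-1.16 to -0.09) at 48 h. The 48 h library was higher than the 24 h library by 1.33 (0.65 to 2.03), which made Kmo the 1 gene of 6 past 2-fold in that comparison, where 11.6% of all features were higher and 2.31% lower by that much; no gene of the set was lower. This pooled difference was not seen among cells of like depth. In the bins of 5000 to 10000, 10000 to 20000, 20000 to 50000 and at least 50000 UMIs, Kmo was at 7.03, 2.71, 0.515 and 0.278 CPM at 24 h and at 3.03, 1.06, 0.434 and 0 CPM at 48 h, from 2 to 18 UMIs a bin at 24 h and 0 to 29 at 48 h. Untreated cells of these bins were at 5.36, 6.05, 2.43 and 0.879 CPM, from 6 to 32 UMIs a bin. Kmo at 48 h was thus below untreated in each bin, with overlapping intervals in the shallowest and the deepest. Within cluster 0, the largest of the cell clusters described later, the 48 h over 24 h ratio was -0.02 (-1.11 to 1.18). Kynu, which cleaves kynurenine and 3-hydroxykynurenine, had 5 UMIs untreated, 2 at 24 h and 0 at 48 h. Haao, which opens the ring of 3-hydroxyanthranilate, had 6, 1 and 3 UMIs. The 24 h ratio of Kynu had an interval of -5.23 to 0.78 and that of Haao one of -8.62 to -0.06, the latter resting on 1 UMI at 24 h.

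Slc7a5 was modestly higher with IFN-γ. It stood at 47.4 CPM untreated (2361 UMIs), 69.2 CPM at 24 h (4920 UMIs) and 91.5 CPM at 48 h (4323 UMIs), with log2 ratios of 0.55 (0.47 to 0.62) and 0.95 (0.88 to 1.02). With TMM scaling these were 0.98 and 1.12, so that the 48 h ratio then passed 2-fold. Its level varied with the depth of the cells: among untreated cells it was 78.7 CPM in those of 5000 to 10000 UMIs and 41.0 CPM in those of at least 50000 UMIs. At 24 h the same bins held 257 and 62.7 CPM, and at 48 h 125 and 79.1 CPM. In the bins of 10000 to 20000 and 20000 to 50000 UMIs it was at 84.2 and 54.8 CPM untreated. These bins held 167 and 96.4 CPM at 24 h and 93.3 and 79.0 CPM at 48 h. The treated libraries were thus above the untreated one in each bin, with overlapping intervals at 48 h between 10000 and 20000 UMIs. Slc7a5 at 48 h was below 24 h in all bins but the deepest. As means over single cells the ratios to untreated were 0.76 and 0.78.

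Ahr and its target Tiparp stayed within 2-fold of untreated in pooled cells. Ahr was at 16.7 CPM untreated (830 UMIs), 10.7 CPM at 24 h (757 UMIs) and 15.8 CPM at 48 h (748 UMIs). The 24 h ratio of -0.65 (-0.79 to -0.50) stood beside a median of -0.46 over all features and came to -0.22 with TMM scaling, and the 48 h ratio of -0.07 (-0.22 to 0.07) had an interval across 0 and came to 0.10 with TMM scaling. Tiparp was at 28.2, 26.4 and 30.2 CPM (1404, 1879 and 1427 UMIs), with ratios of -0.09 (-0.19 to 0.01) at 24 h and 0.10 (-0.01 to 0.21) at 48 h. With TMM scaling the Tiparp ratios were 0.34 and 0.27, and as means over single cells 0.07 and -0.10, so its pooled direction was not settled at either time. In the depth bins given for Kmo, Tiparp was at 49.2, 42.7, 35.8 and 24.3 CPM untreated. It was at 67.5, 62.8, 43.8 and 23.9 CPM at 24 h and at 38.1, 30.2, 27.6 and 26.8 CPM at 48 h. The deepest bin thus went the other way at both times, with overlapping intervals. At 24 h the intervals were separate only between 10000 and 20000 UMIs, where Tiparp was higher than untreated. At 48 h they were separate only between 10000 and 50000 UMIs, where Tiparp was lower in both bins. Ahr at 48 h was lower in some cells of like depth, with 34.4 CPM untreated and 15.4 CPM at 48 h between 10000 and 20000 UMIs, and 20.3 and 12.3 CPM between 20000 and 50000 UMIs. In the shallowest bin it was at 22.3 and 24.2 CPM, and in the deepest at 13.9 and 17.1 CPM, with overlapping intervals in both. The direction at 48 h thus differed between bins, and the intervals were separate only where Ahr was lower. At 24 h Ahr was at 19.7, 24.4, 13.9 and 9.96 CPM from the shallowest to the deepest bin. This was below untreated in each bin, with separate intervals only in the deepest.

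The wider lists place these 8 genes among their neighbours in the pathway. Of 13 kynurenine enzymes, 7 had enough counts at 24 h, with 3 higher and 2 lower by at least 2-fold, and a median log2 ratio of 0.43; at 48 h 3 were higher and none lower, with a median of 0.51. Over all features 3.46% were higher and 26.0% lower at 24 h, and 5.26% and 16.6% at 48 h, so the 24 h count of lower enzymes is near that of all features. Where only 1 UMI in each library was asked for, the medians were -0.34 and -0.32. Those higher were Ido1, its paralog Ido2 and Kyat3. Ido2 was at 0.34, 8.24 and 12.4 CPM, with log2 ratios of 4.59 (3.90 to 5.38) and 5.18 (4.49 to 5.97). Kyat3, an aminotransferase that turns kynurenine into kynurenic acid, was at 6.16, 14.2 and 19.0 CPM. Kyat1, another aminotransferase, was at 9.80, 3.70 and 5.46 CPM. The liver-type dioxygenase Tdo2 had 2, 0 and 0 UMIs, and Qprt, which makes nicotinate mononucleotide from quinolinate, had none in any library.

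Among the genes of tryptophan transport, the partner chain of Slc7a5 was higher as well. Slc3a2, the heavy chain, was at 73.2, 120 and 182 CPM, with log2 ratios of 0.71 (0.66 to 0.77) and 1.31 (1.26 to 1.37). Slc6a14, a broad amino acid transporter, was lower, at 21.2, 4.57 and 4.85 CPM. Over the 7 transport genes the median was -0.61 at 24 h, with 0 higher and 3 lower by at least 2-fold, and -0.51 at 48 h, with 1 higher and 3 lower. Beside these stand the medians of -0.46 and -0.18 and the shares of 26.0% and 16.6% lower over all features. Where only 1 UMI in each library was asked for, the 24 h median stayed at -0.61. The 48 h median was then 0.05 over 6 genes, with 1 higher and 2 lower, so its sign depended on the filter.

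Wars stood above the other cytosolic tRNA ligases, most of which were slightly higher. Of 20 such ligases 19 had a ratio above 0 at both times, where 4377 of 17412 and 6458 of 17376 features did. Their medians were 0.31 and 0.56 where those of all features were below 0. Without Wars the 19 others lay between -0.06 and 0.92 at 24 h and between -0.28 and 1.27 at 48 h. Yars, the tyrosine ligase, was at 52.3, 99.1 and 126 CPM, and Kars, the lysine ligase, was at 47.4, 86.6 and 91.9 CPM. None of 17 mitochondrial ligases passed 2-fold at either time, with medians of -0.20 and -0.09. Over all features 3.46% were higher and 26.0% lower by that much at 24 h, and 5.26% and 16.6% at 48 h. Wars2, which loads tryptophan in mitochondria, was at 27.8, 18.2 and 29.0 CPM.

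Genes of the Atf4 amino acid response were higher as a list. Of 12 genes compared, 11 had a ratio above 0 at each time, where 4377 of 17412 and 6458 of 17376 features did. Of the 12, 2 and 6 passed 2-fold upwards (3.46% and 5.26% of all features did). None passed downwards (26.0% and 16.6% of all features did), and the medians were 0.75 and 1.13. Slc3a2, given above with the transport genes, is also in this list and was among the 6 at 48 h. Trib3, a pseudokinase of this response, was at 4.08, 21.3 and 29.7 CPM, and Psat1, an enzyme of serine synthesis, was at 68.9, 135 and 182 CPM. Members of this list also serve growth and the unfolded protein response, and their link to tryptophan was not tested.

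Genes of the Ahr complex and its targets had medians of 0.10 and -0.07 over the 10 and 9 genes with enough counts. At 24 h 0 of the 10 were higher and 1 was lower by at least 2-fold, against 3.46% and 26.0% of all features. Cyp1a1, the classical Ahr target, had 5, 10 and 3 UMIs, with a 24 h ratio of 0.49 (-1.20 to 2.39). Cyp1b1 had 14, 26 and 53 UMIs (95% interval of its 48 h log2 ratio 1.13 to 2.96). It was the 1 gene of 9 past 2-fold upwards at 48 h, where 5.26% of all features were. Its level was not compared among cells of like depth. Nqo1, a quinone reductase, was at 13.3, 8.02 and 8.85 CPM. For serotonin, the other major route of tryptophan, 3 of 5 genes were lower by at least 2-fold at both times, where 26.0% and 16.6% of all features were. Markers of the enteroendocrine lineage, which holds the serotonin-making cells, had summed levels of 193, 265 and 77.2 CPM. At 24 h 3 of 9 were lower and 2 higher by at least 2-fold, against 26.0% and 3.46% of all features. At 48 h 6 of 9 were lower and 0 higher by that much. Colonocyte markers were lower by that much for 10 of 15 genes at both times, with summed levels of 3203, 1349 and 1265 CPM, and no marker of either list was at 0. The part of these in the serotonin genes was not tested. Ddc, which makes serotonin from its hydroxylated precursor, was at 35.7, 8.81 and 8.11 CPM, while Tph1, which commits tryptophan to this route, was at 5.04, 5.50 and 5.95 CPM. In NAD synthesis, Nampt, the salvage enzyme for nicotinamide, was at 55.8, 120 and 117 CPM, and the list's medians were -0.78 and -0.22 over 7 genes, with 1 higher and 2 lower by at least 2-fold at both times; the 24 h count of lower genes is near the 26.0% of all features.

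**Figure D2:**
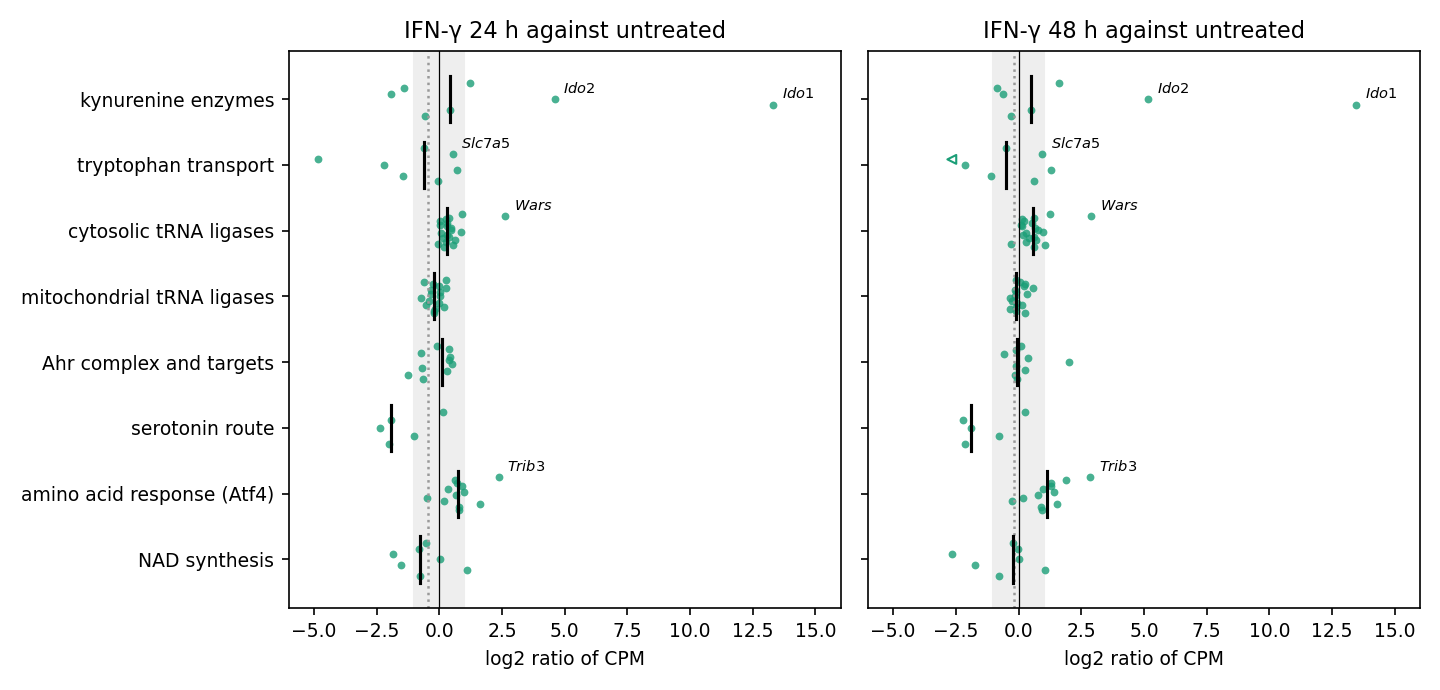
Log2 ratios of CPM to untreated at 24 h (left) and 48 h (right), with 1 point per compared gene, 1 row per pathway list, vertical bars for list medians, a dotted line for the median of all features, a grey band for ratios under 2-fold and an open triangle for a bound against a library with no UMI. Ido1, Ido2 and Wars stand to the right of their lists, and the cytosolic tRNA ligases lie mostly above 0 with medians of 0.31 and 0.56.

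Ido1 UMIs were spread unevenly over cells. After each cell was thinned at random to 5000 UMIs, 0 of 1058 untreated cells had an Ido1 UMI, which allows a share of up to 0.284% (3 counts of 1058 cells; the Clopper-Pearson upper limit is 0.348%) of cells with a UMI at this depth. At 24 h 43.6% of cells had one (Clopper-Pearson 95% interval 40.4 to 46.9) and at 48 h 50.1% (48.3 to 52.0). The exact expectation over all draws was 46.9% and 49.9%, and without thinning the shares were 0.0945%, 85.3% and 70.8%, and the order of the treated libraries then followed their depth, so no order of the treated times was read from the shares. Of the thinned cells, 34.0% (untreated), 89.9% (24 h) and 92.9% (48 h) held a Wars UMI, and unthinned these shares were 79.7%, 99.6% and 98.1%. The 10% of cells with the most Ido1 UMIs held 53.3% of them at 24 h and 47.9% at 48 h, where the top 10% for Wars held 26.2% and 23.7%. This share also depends on the mean thinned count, which was 1.03 and 1.07 for Ido1 and 2.73 and 3.08 for Wars. For Slc7a5, with means of 0.51 and 0.52, it was 56.9% and 44.7%. The variance over the mean of thinned counts was 3.55 and 3.07 for Ido1 and 1.55 and 1.41 for Wars. The highest thinned count of Ido1 in 1 cell was 19 at 24 h and 25 at 48 h, with medians of 0 and 1. Slc7a5 was found in 22.5%, 31.7% and 38.3% of thinned cells, Ahr in 10.5%, 5.89% and 8.83%, and Tiparp in 15.1%, 15.6% and 15.1%.

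**Figure D3:**
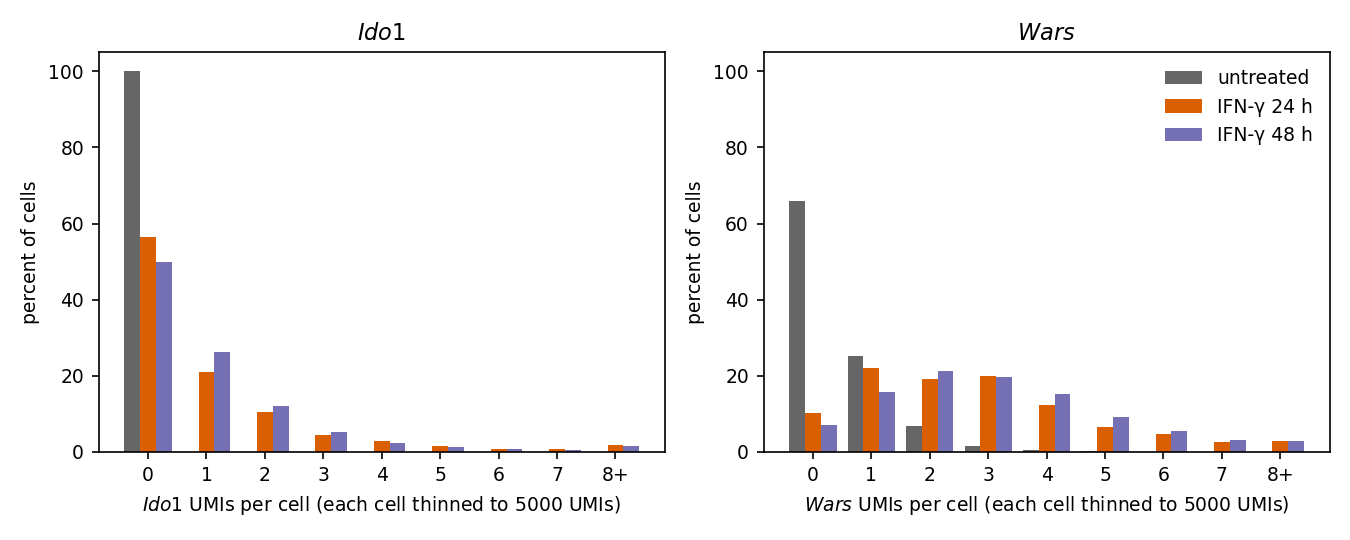
Percent of cells (vertical axis) by number of Ido1 UMIs (left) and Wars UMIs (right) per cell after thinning each cell to 5000 UMIs, with counts of 8 or more joined, for the untreated, 24 h and 48 h libraries. All untreated cells are at 0 for Ido1, and treated cells have medians of 0 and 1 with a tail to the right, while Wars has medians of 0, 2 and 3.

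Barcodes below 2000 UMIs, called background here, carried Ido1 as well. The smallest of them held 1390 UMIs in the untreated, 851 in the 24 h and 1624 in the 48 h library. They can hold free RNA, debris or shallow cells, which were not told apart. Ido1 in them was at 0.03 CPM untreated (1 UMI), 140 CPM at 24 h (2993 UMIs) and 126 CPM at 48 h (3209 UMIs). This was 68.1% and 55.2% of the level in cells of the same library. The part of free RNA in the levels and shares of cells was not tested. The ratio of Ido1 to Wars UMIs was 0.388 in the 24 h background and 0.299 in the 48 h background, and ranged in cell clusters from 0.210 to 0.940 at 24 h and from 0.160 to 0.729 at 48 h. Ido1 was present at all depths, with 202 to 272 CPM over 4 depth bins at 24 h and 172 to 255 CPM at 48 h.

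Cells of the 3 libraries were clustered together, with the genes of the lists removed from the clustering, into 8 clusters. Of these, 5 could be named from markers: cluster 1 and cluster 2 as proliferating-like (led by Ube2c and Plk1, and by histones and Mcm3), cluster 3 as colonocyte-like (Krt20, Car1, Slc26a3), cluster 4 as goblet-like (Spink4, Muc2, Tff3) and cluster 6 as enteroendocrine-like (Chgb, Chga). Cluster 0 (shallow cells with stem markers), cluster 5 (led by St3gal4 and Pparg) and cluster 7 (led by Gm26917) stayed unnamed. All 9 goblet markers and 10 of 15 colonocyte markers were lower by at least 2-fold in pooled cells at both times, and the part of this in which cells fell into clusters 3 and 4 was not tested.

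Among the named clusters with at least 20 cells in both treated libraries, Ido1 was higher in goblet-like and colonocyte-like cells than in proliferating-like cells, and the unnamed cluster 5 was at the level of the former. At 24 h it was 690 CPM in goblet-like cells (79 cells, 3262 UMIs), 385 CPM in colonocyte-like cells (116 cells, 4859 UMIs), 118 CPM in cluster 1 and 101 CPM in cluster 2. At 48 h the values were 340 CPM (231 cells, 1177 UMIs), 566 CPM (292 cells, 3936 UMIs), 159 CPM and 117 CPM. The pooled order of goblet-like and colonocyte-like cells thus differed between the times. Goblet-like over colonocyte-like cells gave a log2 ratio of 0.84 (0.78 to 0.90) at 24 h and -0.73 (-0.83 to -0.64) at 48 h. Within goblet-like cells the 48 h library was lower than the 24 h library by a log2 ratio of -1.02 (-1.12 to -0.92), and within colonocyte-like cells it was higher by 0.55 (0.49 to 0.61). After thinning, which sets all cells to 1 depth, the mean was 2.68 and 1.60 Ido1 UMIs per goblet-like cell at 24 h and 48 h. Per colonocyte-like cell it was 2.25 and 3.10, the same order but with a smaller gap at 24 h. At 24 h 72.2% (60.9 to 81.7) of goblet-like and 66.4% (57.0 to 74.9) of colonocyte-like thinned cells had an Ido1 UMI. These intervals overlapped, and those at 48 h, of 59.3% (52.7 to 65.7) and 81.8% (76.9 to 86.1), did not. Before thinning, 1 cell of the 24 h library held 416 Ido1 UMIs. Median depth before thinning was 59556 and 10585 UMIs in goblet-like cells and 73057 and 20688.5 in colonocyte-like cells. Cluster 5, unnamed, was at 427 and 417 CPM, and cluster 0 at 166 and 138 CPM. Enteroendocrine-like cells, too few at 24 h for the comparison above (12 cells, 268 CPM), were at 166 CPM at 48 h (118 to 228, 21 cells). That interval held the 48 h level of cluster 1. In untreated cells the 1 Ido1 UMI fell in cluster 0, so the ratio to untreated was at least 10.50 on the log2 scale in colonocyte-like cells and at least 10.59 in goblet-like cells at 24 h, with a floor of 3 counts.

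**Figure D4:**
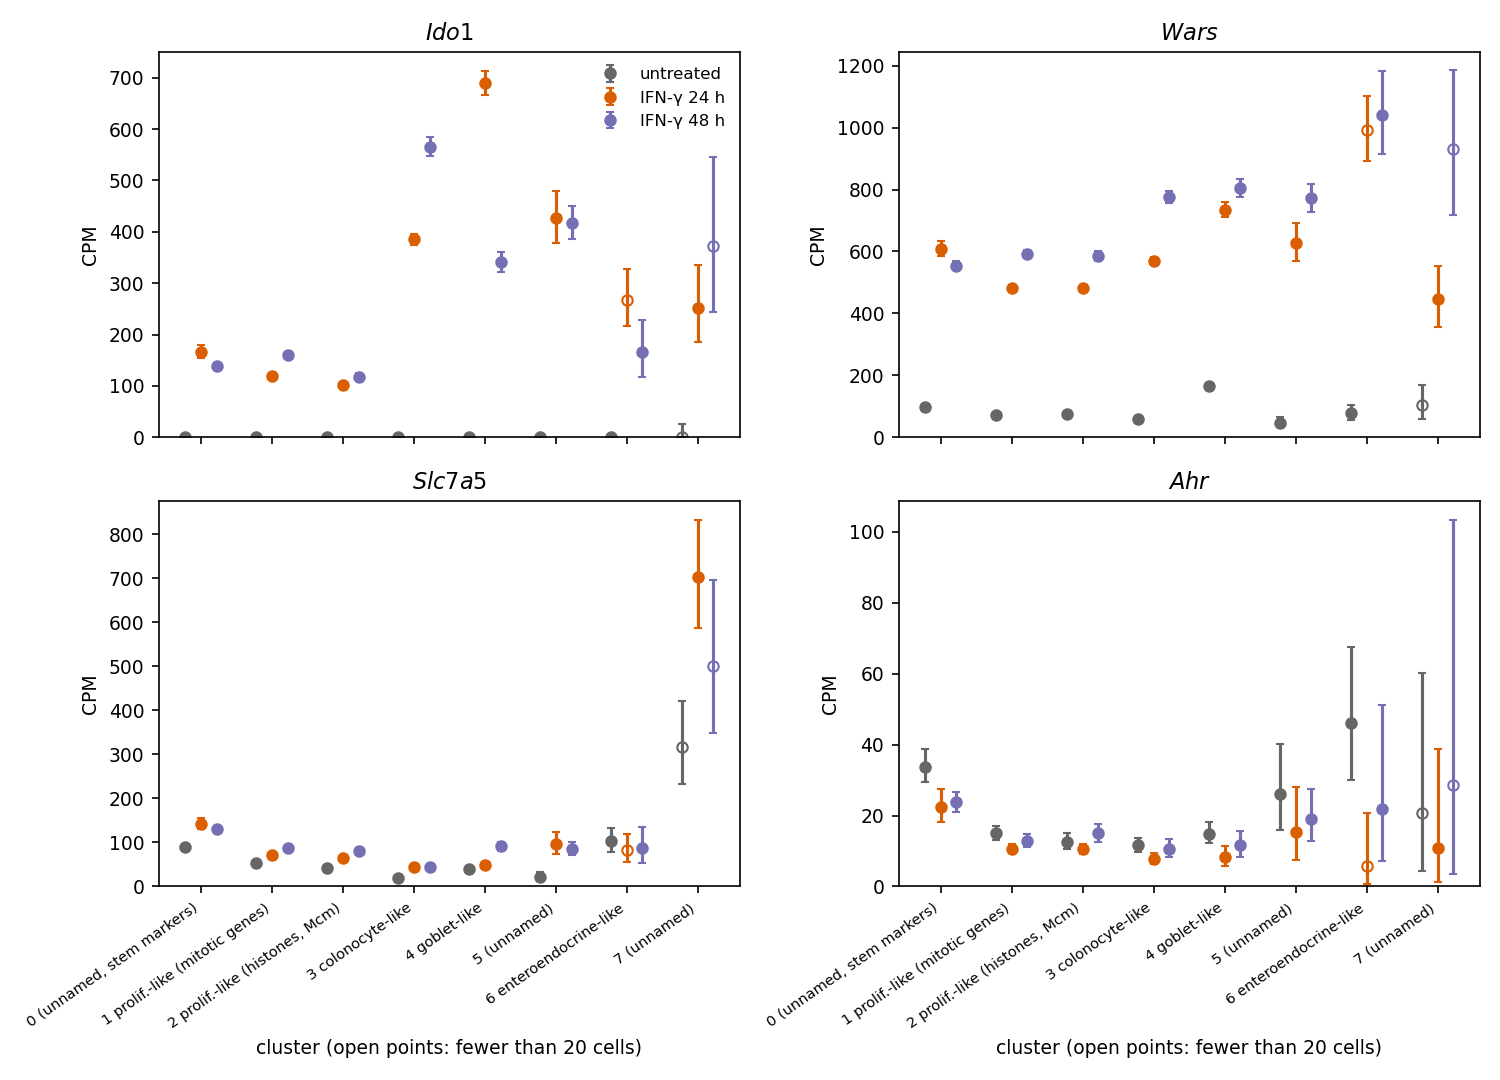
Levels of Ido1, Wars, Slc7a5 and Ahr by cluster and library, as CPM of pooled cells with exact 95% counting intervals as bars and open points for fewer than 20 cells. Ido1 peaks in goblet-like cells at 24 h (690 CPM) and in colonocyte-like cells at 48 h (566 CPM), and Wars is higher in each treated library in every cluster.

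Wars varied less between cell states than Ido1. Over the clusters with at least 20 cells, the highest level was 1.65-fold the lowest at 24 h and 1.88-fold at 48 h, against 6.82-fold and 4.82-fold for Ido1. Untreated Wars was highest in goblet-like cells (166 CPM), which then had the lowest ratio at 24 h among clusters with at least 20 cells in each library, 2.14, with 734 CPM at that time. Colonocyte-like cells went from 57.2 CPM to 569 and 776 CPM, ratios of 3.31 and 3.76. Slc7a5 was lowest in colonocyte-like cells, at 20.2, 43.7 and 45.1 CPM, and was 89.3, 143 and 131 CPM in cluster 0. It was highest in cluster 7, at 316, 702 and 501 CPM, a group of 16, 25 and 10 cells. Ahr was lower at 24 h in cluster 0 (-0.58), cluster 1 (-0.49), colonocyte-like cells (-0.58) and goblet-like cells (-0.85), and in cluster 2 its ratio was -0.28 (-0.61 to 0.06). These ratios use UMI totals without TMM scaling, and the pooled 24 h median over all features was -0.46. At 48 h the Ahr ratio was -0.51 (-0.77 to -0.25) in cluster 0 and had an interval across 0 in clusters 1 to 5.

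The genes whose level over cell states was most like that of Ido1 were sought over 14 points, the clusters of the treated libraries with at least 20 cells, among 6106 genes with at least 50 CPM at 1 point. Points of 1 library share its depth and processing, and the correlations of log2(CPM + 1) are descriptions. Trim31, a ubiquitin ligase, had the highest Pearson correlation, 0.96, and also the highest Spearman correlation, with levels from 45.3 to 136 CPM. It was followed by Fuca1, a lysosomal fucosidase (0.90), Mgat4b, a Golgi glycosyltransferase (0.88), Tspan1, a tetraspanin (0.83), and Nupr1, a stress-response regulator (0.81). By Spearman correlation Fuca1 ranked 5, Mgat4b 8.5, Tspan1 77.5 and Nupr1 40.5. Wars had a correlation of 0.44 and Ido2 0.57.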

How the data were processed

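The authors deposited raw counts of UMIs per gene and barcode for 3 libraries made with the 10x 3' v3 kit, which the submitters' processing notes give as Cell Ranger 6.0.1 on mm10. The annotation release and the use of strand in counting are not given in the sources used here. Cells were kept with the study's limits (at least 5000 UMIs, at least 400 genes, at most 15% mitochondrial UMIs). Counts were summed per library, 10 counts over both libraries were asked of a compared gene, and 2-fold marks a gene as past the fold. Ratios have exact conditional binomial intervals, and shares have Clopper-Pearson intervals after thinning to 5000 UMIs. The totals of 47243500 to 71077817 UMIs per library set the counting error, and the levels of some genes also differed with the depth of the cells. Clustering used Seurat 5.3.0 with CCA integration, 2000 variable genes without the listed genes, 20 principal components and resolution 0.5. Scrublet (scanpy 1.11.5) called under 0.5% of the cells of each library at its own threshold and so did not work, and doublets were kept; removal of the 6% of cells with the highest scores was an alternative. TMM factors came from edgeR 4.0.16, without a count test. Other scripts used Python 3.11.15 and scipy 1.17.1, and the ratio code was tested on simulated data. Genes named beyond the 8 were taken by a rule: of each list, at most 4 with the largest absolute ratio at 24 h among those with at least 10 CPM, Wars2, the 5 genes most like Ido1, and Irf1, Socs1 and Cxcl10; 1 further gene of the rule is not reported here. Other genes given here, such as those with few UMIs, were added for their place in the pathway. The genes and lists were chosen with earlier results of these data known. No column of another sample was present, and 1 listed gene, Ddit3, has more than 1 feature and was left out.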

Additional observations from a re-analysis of the deposited data

Results flagged for a closer look

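Signal was found in barcodes that the comparisons did not use, those below 2000 UMIs, above the level in the same kind of barcodes of the untreated library. Ido1 stood there at 140 CPM at 24 h and 126 CPM at 48 h, against 0.03 CPM untreated. Wars stood at 361 and 420 CPM, against 61.5 CPM untreated, and Slc7a5 at 33.1 and 28.4 CPM, against 22.8 CPM untreated.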

How the results depend on the processing

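No paired analysis was possible because each condition has 1 library. Of 153 log2 ratios of the 8 genes under alternatives, 113 moved by less than their counting interval, 40 moved by more and 0 that were called changed sign; of 48 levels by cell class 9 moved, and of 36 list medians 5 moved. The Wars ratio at 24 h was 3.06 with TMM factors and 2.71 with totals without the 100 genes of most counts. At 48 h it was 3.07 and 2.96 under these, 2.85 with a minimum of 2000 UMIs and 2.77 as a mean over single cells. With a minimum of 10000 UMIs, 1 of the 6 genes was lower past 2-fold at 48 h (Kmo, -1.47). None was higher by at least 2-fold at 48 h than at 24 h with that minimum, with at most 10% mitochondrial UMIs or as a mean over cells. With the main limits Kmo had passed. Over all features, 11.7% of those past 2-fold at 24 h were higher with library totals and 28.5% with TMM factors; the cause was not tested. The exact expectation of the shares was an alternative chosen after seeing the data. Over the cluster settings Ido1 in colonocyte-like cells was 385 to 526 CPM at 24 h and 544 to 658 CPM at 48 h, and in goblet-like cells, which fell into 2 clusters under some settings, 687 to 706 and 338 to 352 CPM. Of the 5 ranks of likeness to Ido1, 3 moved with Spearman correlation. Kynu, Haao and Kmo are limited by depth, and no condition has a replicate.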
